A study of Mus musculus with 13 samples.

Results

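The genes described here are AP-1 subunits and immediate early genes, which were taken as a named list, drawn up with earlier results of these data known and with no rule on their values: *Fos*, *Fosl1*, *Fosl2*, *Jun*, *Junb*, *Jund*, *Egr1*, *Ier2*, *Myc* and *Dusp1*. Of these 10 genes, 9 were among the 13222 genes of the deposited table, and all 9 were among the 12319 genes tested. *Fosl1* was not analysed here. RNA came from cultured 4T1-Thy1.1 cells, a mammary carcinoma line of BALB/c mouse origin that carries a Thy1.1 transgene, so that every sample is the same line. The labels give DMEM/F12 with serum as the medium, whereas the paper's methods name RPMI. Cells were left untreated (control, n = 3) or were given 200 ng/mL doxorubicin (DOX, n = 4), 200 ng/mL DOX with 25 ng/mL recombinant mouse IL-17A (DOX+IL-17A, n = 3) or 25 ng/mL IL-17A (n = 3). All were harvested after 48 h, and the design asks how IL-17A alters the response to DOX. The labels do not say whether libraries of a condition came from separate cultures, so p-values measure only the spread between these samples, which may be technical.

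AP-1 is a family of dimers, such as those of a Jun protein with a Fos, Atf or Maf protein, that pair through a leucine zipper and bind DNA. Immediate early genes are transcribed within minutes of serum, growth factor, cytokine or stress signals, mostly through MAP kinases and without new protein synthesis, and their messages are short lived. Doxorubicin is an anthracycline that damages DNA through topoisomerases, and IL-17A is a T cell cytokine whose receptor signals to NF-kB and MAP kinases.

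The 3′ ends of transcripts were sequenced, so that a transcript gives reads in proportion to its number and not to its length. Values are TMM-normalized reads, which are reads scaled to the library's size and to a factor for RNA composition, and a value corresponding to 3 reads lay between 0.183 and 0.613 depending on the library. Libraries held 4445592 to 16930600 reads on listed genes. All 12 mammary epithelial markers were above that level in all 13 libraries, with summed values of 2017 to 2585 without DOX and 1093 to 1387 with it. Of 7 endothelial markers none was in the table, and 5 of 12 immune markers were. In bulk RNA, fewer cells that express a gene and less RNA per cell cannot be told apart. Control replicate 1 stood apart, at 74.7 on the second principal component, with fibroblast markers summing to 323 against 101 to 161 in the other libraries. *Thy1*, of which the line carries a transgene, made up 179 of that 323. The collagen genes *Col1a1*, *Col1a2* and *Col3a1* were also highest in that library, whereas *Pdgfra*, *Dcn* and *Postn* were not. Muscle markers summed to 266 in DOX replicate 1 and to 9.69 to 48.9 elsewhere. Red blood cell markers summed to 66.5 in that library and to 0 to 14.4 elsewhere.

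Differences were tested with limma across all genes, on log2(value + 1), and a gene was called at a Benjamini-Hochberg adjusted p under 0.05 with a fold change above 2. *Fos* was the member that passed. It was called in DOX against control, where 15.3% of all genes were called, and in DOX+IL-17A against IL-17A, where 9.84% were. It was also called in DOX+IL-17A against control, beside 12.9% of all genes. In each of these comparisons 1 of 9 members was called, a share of 11.1%, near the background. In IL-17A against control no member was called, with 0.00812% of all genes called, and limma gave 1 member, and 3.08% of all genes, an unadjusted p under 0.05. When DOX+IL-17A was set against DOX no member was called, with 0.438% of all genes called, and 2 members and 6.35% of all genes had an unadjusted p under 0.05 (limma). voom, edgeR's quasi-likelihood test and DESeq2 on the reads also called no member in either comparison.

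**Figure D1:**
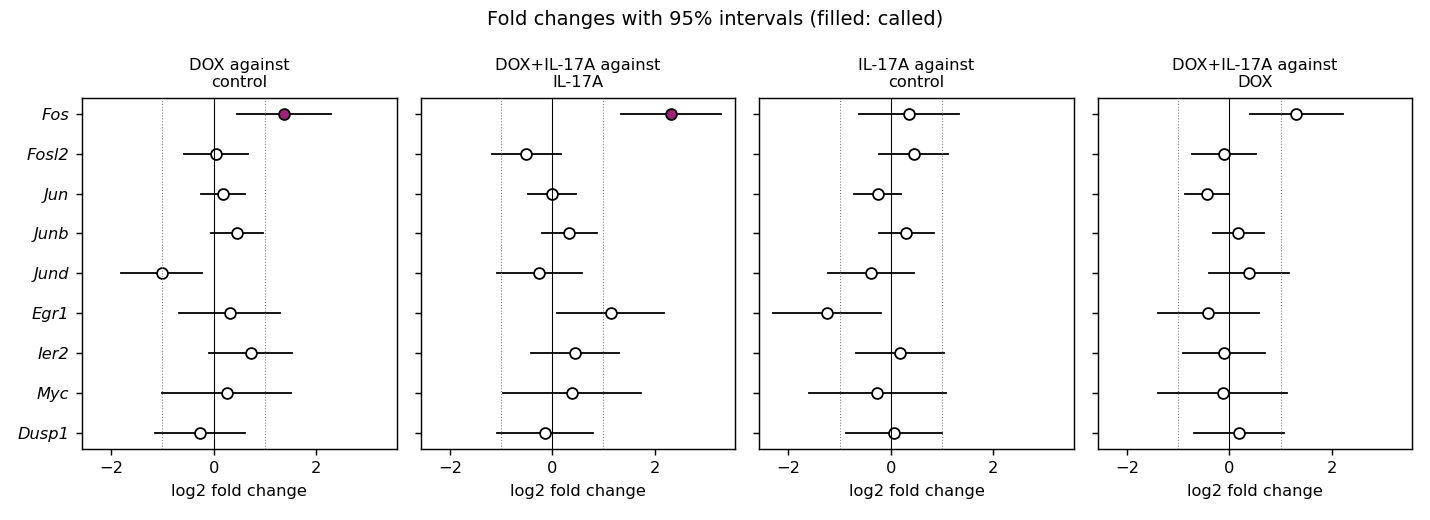
Log2 fold change (horizontal axis, on log2 of value + 1) of each of the 9 genes in 4 comparisons, as points with 95% intervals from limma. Filled points were called, which was *Fos* at 1.37 in DOX against control and 2.32 in DOX+IL-17A against IL-17A, and dotted lines mark a fold change of 2 in either direction.

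*Fos* encodes c-Fos, the Fos protein whose message rises and decays fastest after stimulation. Its value was 2.88, 0.670 and 0.825 in control replicates 1, 3 and 5, from 7 to 17 reads, and 3.38, 11.8, 3.50 and 3.76 in DOX replicates 1 to 4, from 25 to 108 reads. With DOX+IL-17A it was 14.1, 16.7 and 10.7 in replicates 2, 3 and 5, and with IL-17A it was 2.93, 1.57 and 1.48. Every library with DOX was above every library without it, and DOX replicate 2 lay within the range of the libraries given both agents. The condition means ran from 1.46 ± 1.23 (SD, n = 3) in control through 1.99 ± 0.812 (SD, n = 3) with IL-17A and 5.61 ± 4.14 (SD, n = 4) with DOX, and reached 13.8 ± 3.01 (SD, n = 3) under both agents. In that order the ranges of control and IL-17A overlapped, those of IL-17A and DOX did not, and those of DOX and DOX+IL-17A did.

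*Fos* rose with DOX, with a log2 fold change of 1.37 (95% interval 0.46 to 2.28, adjusted p = 0.033, limma), while the ratio of the means was 3.85. The fitted change is the smaller because a pseudocount of 1 is of the size of the control values. With 0.1 in its place the log2 fold change was 1.93 (adjusted p = 0.0279, limma). The call rested on few libraries. It was lost with the replicate number as a block (1.18, adjusted p = 0.105, limma) and in a fit of only the groups compared (adjusted p = 0.0726, limma). It was also lost without control replicate 3 (1.15, adjusted p = 0.102, limma), without control replicate 5 (1.21, adjusted p = 0.114, limma) and without DOX replicate 2 (adjusted p = 0.0919, limma). Without control replicate 1 and DOX replicate 1 it was 1.90 (adjusted p = 0.0117, limma).

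*Fos* was also higher with DOX in cells that received IL-17A. Against IL-17A, *Fos* rose with DOX+IL-17A by a log2 fold change of 2.32 (95% interval 1.34 to 3.30, adjusted p = 0.0053, limma), and the means stood in a ratio of 6.94. This call held in every alternative run, with adjusted p between 0.000312 and 0.0272. Against control the log2 fold change with DOX+IL-17A was 2.68 (adjusted p = 0.00145, limma). These comparisons and that of DOX with control reuse the same libraries in part.

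What IL-17A added to DOX for *Fos* did not pass the test over all genes. The DOX+IL-17A mean was 2.46 times the DOX mean, and the log2 fold change was 1.31 (95% interval 0.40 to 2.23, unadjusted p = 0.00784, adjusted p = 0.413, limma), with adjusted p of 0.102 to 0.874 over the alternatives. DOX replicate 2, at 11.8, lay above DOX+IL-17A replicate 5, at 10.7, and the other DOX libraries lay below all of the DOX+IL-17A libraries. IL-17A without DOX gave a log2 fold change of 0.36 (95% interval −0.62 to 1.34, adjusted p = 0.959, limma). For *Fos*, the IL-17A effect under DOX exceeded that in cells free of DOX by 0.95 in log2 (95% interval −0.39 to 2.29, adjusted p = 0.901, limma). For that difference 0 of 9 members and 4.51% of all genes had an unadjusted p under 0.05 by limma, which called 0% of all genes. DESeq2 called 18 genes, all lower, with 0 members among them.

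**Figure D2:**
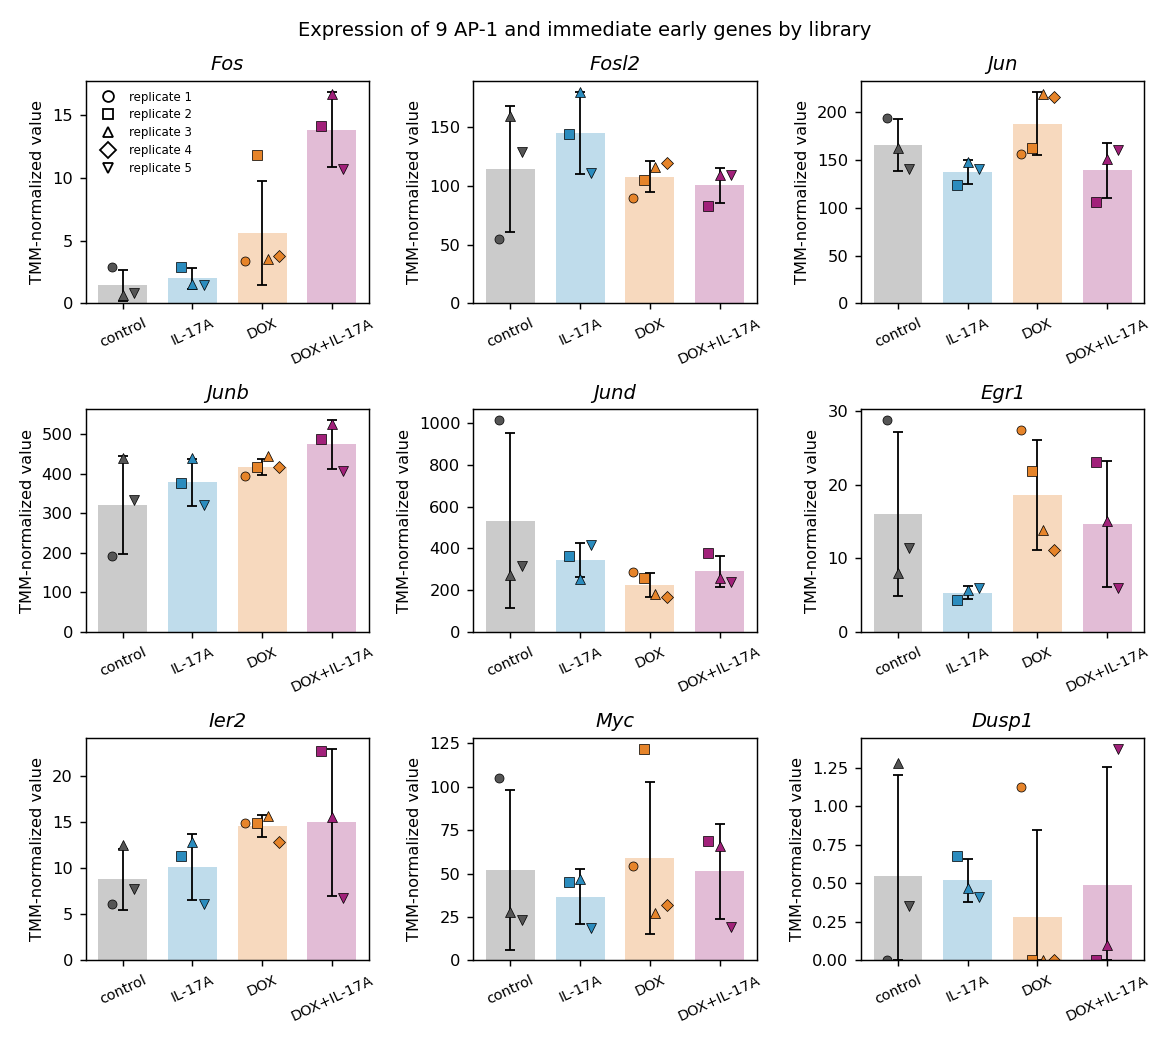
TMM-normalized value (vertical axis, linear from 0) of the 9 genes in each library, with symbols for replicate numbers, bars for condition means and error bars of 1 SD that stop at 0. *Fos* lay between 0.670 and 2.93 without DOX and between 3.38 and 16.7 with it, and control replicate 1 stood apart for *Jund*, *Fosl2*, *Junb*, *Egr1* and *Myc*.

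*Fos* is a protein-coding gene on the plus strand of chromosome 12, chr12:85473890-85477273 in GRCm38. The bases just before its start are shown with those of *Fosb*, the other Fos-family gene called with DOX, because both hold a match to the NF-kB consensus, in capitals, on either strand. The stretches come from the RefSeq promoter table on GRCm38.p6, *Fos* at chr12:85473640-85473889 on the plus strand and *Fosb* at chr7:19310046-19310295 on the minus strand, and end at the base before the start site.
Fos: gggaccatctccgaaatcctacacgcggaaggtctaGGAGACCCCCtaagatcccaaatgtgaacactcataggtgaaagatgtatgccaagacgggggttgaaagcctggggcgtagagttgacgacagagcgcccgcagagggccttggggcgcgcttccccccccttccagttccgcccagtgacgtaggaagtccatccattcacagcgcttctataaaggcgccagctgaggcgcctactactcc
Fosb: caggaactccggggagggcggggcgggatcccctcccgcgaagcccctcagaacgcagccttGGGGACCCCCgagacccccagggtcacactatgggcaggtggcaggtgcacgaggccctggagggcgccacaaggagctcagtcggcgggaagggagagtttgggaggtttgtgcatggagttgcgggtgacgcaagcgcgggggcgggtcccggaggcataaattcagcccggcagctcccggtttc
The match in *Fos* begins 214 bases before the start. Of 32851 promoter windows in the table, 8.46% hold such a match. Promoters of 6 of the 9 members were in the table, and *Fosl2* was the other member with a match. The cyclic AMP response element, TGACGTCA, was in 1.79% of windows and in that of *Dusp1*. The AP-1 site, TGACTCA on either strand, was in 5.2% of windows, the CArG box of serum response factor was in 1.63%, and both were in 0 of the 6. These are letter matches in a short window that begins 250 bases before the start, and say nothing of binding. Sites farther from the start were not searched, so 0 of 6 does not mean that these genes lack them.

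*Fosl2* encodes Fra-2, a Fos protein without a strong activation domain that is made later and lasts longer than c-Fos. It was the most abundant of the Fos genes measured, at 54.6, 159 and 129 in control, 90.0, 105, 116 and 119.6 with DOX, 82.8, 109 and 109 under both agents and 144, 180.0 and 111 with IL-17A. The ranges overlapped except that each value with DOX+IL-17A lay under each value with IL-17A. That difference was −0.51 on the log2 scale (95% interval −1.18 to 0.16, adjusted p = 0.313, limma). DOX against control gave 0.04 (95% interval −0.59 to 0.67, adjusted p = 0.933, limma), and −0.42 without control replicate 1, which held the lowest value. *Fosl2* lies on chr5:32135801-32157842, on the plus strand.

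*Jun*, an intronless gene on the minus strand at chr4:95049034-95052222, encodes c-Jun, the main partner of Fos proteins and the substrate of the Jun kinases. It held 194, 162 and 139.9 in control, 156, 162, 218 and 215 with DOX, 106, 150.4 and 160.2 under both agents and 123, 148 and 141 with IL-17A. The ranges of the conditions overlapped, with means from 137 ± 12.8 (SD, n = 3) with IL-17A to 188 ± 33.3 (SD, n = 4) with DOX. Its log2 fold change was 0.18 in DOX against control (95% interval −0.26 to 0.61, adjusted p = 0.553, limma). Between DOX+IL-17A and IL-17A it was −0.00 (95% interval −0.47 to 0.46, adjusted p = 0.998, limma). DOX+IL-17A against DOX gave −0.44 (unadjusted p = 0.0486, adjusted p = 0.777, limma).

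*Junb*, whose protein can oppose c-Jun at some promoters, was at 191, 438 and 333 in control and at 395, 415, 444 and 416 with DOX. It reached 488, 526 and 406 with DOX+IL-17A and 375, 439 and 319.5 with IL-17A. The DOX libraries were close together, and control replicate 1 was the lowest of the 13. *Junb* had a log2 fold change of 0.46 with DOX (95% interval −0.04 to 0.96, adjusted p = 0.175, limma), which was 0.13 without control replicate 1 (adjusted p = 0.662, limma) and 0.72 without control replicate 3 (adjusted p = 0.0379, limma). With DOX+IL-17A against control it was 0.63 (adjusted p = 0.0954, limma), with 0.30 without control replicate 1 and 0.90 without control replicate 3 (adjusted p = 0.0235, limma). *Junb*, at chr8:84974484-84978718 on the minus strand, overlaps *Prdx2* on the other strand, and whether counting used strand is not given in the sources used here.

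*Jund*, an intronless gene at chr8:70698949-70700616 on the plus strand, encodes the Jun protein that resting cells keep at a steady level. Its values were 1014, 272 and 313 in control, 286, 258, 182 and 168 with DOX, 375, 258 and 237 under both agents and 364, 255 and 416 with IL-17A. Control replicate 1 was above all other libraries, and the other control libraries overlapped the DOX range. The log2 fold change with DOX was −1.02 (95% interval −1.80 to −0.23, adjusted p = 0.0596, limma). edgeR's quasi-likelihood test on the reads called *Jund* lower (−1.25, adjusted p = 0.0299), as did DESeq2 (−1.31, adjusted p = 0.00672). Without control replicate 1 the value was −0.42 (adjusted p = 0.252, limma), and without control replicate 3 it was −1.37 (adjusted p = 0.0179, limma). Among all genes, the small nucleolar RNA gene *Snord13* followed *Jund* most closely over the 13 libraries (Pearson r = 0.98), and it held 3197 in control replicate 1 against 110 to 864 elsewhere. The part of that library's RNA composition in the *Jund* values was not tested.

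Reads of the 6 Fos and Jun genes in the table, counted within each library, do not depend on the scaling between libraries. Jun genes made up most of them, and Fos-family reads were 11.3% ± 6.38 (SD, n = 3) of the sum in control, 12.5% ± 1.29 (SD, n = 4) with DOX, 11.8% ± 2.08 (SD, n = 3) with DOX+IL-17A and 15.0% ± 3.22 (SD, n = 3) with IL-17A. *Fos* went from 0.0648% to 0.198% of the sum in control libraries to 1.15% to 1.57% with DOX+IL-17A, so that it stayed a small part of the family's messages. *Junb* took 50.4% ± 2.49 (SD, n = 4) of Jun-family reads with DOX, 52.4% ± 3.37 (SD, n = 3) with DOX+IL-17A, 44.0% ± 7.86 (SD, n = 3) with IL-17A and 35.4% ± 19.2 (SD, n = 3) in control. Control replicate 1 was at 13.7%, and the other control libraries were at 50.2% and 42.3%. None of the 8 differences in these shares passed an exact permutation test, 2-sided, with adjusted p of 0.686 or 0.857, and the smallest p the design allows was 0.0571 for 4 against 3 libraries and 0.1 for 3 against 3.

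**Figure D3:**
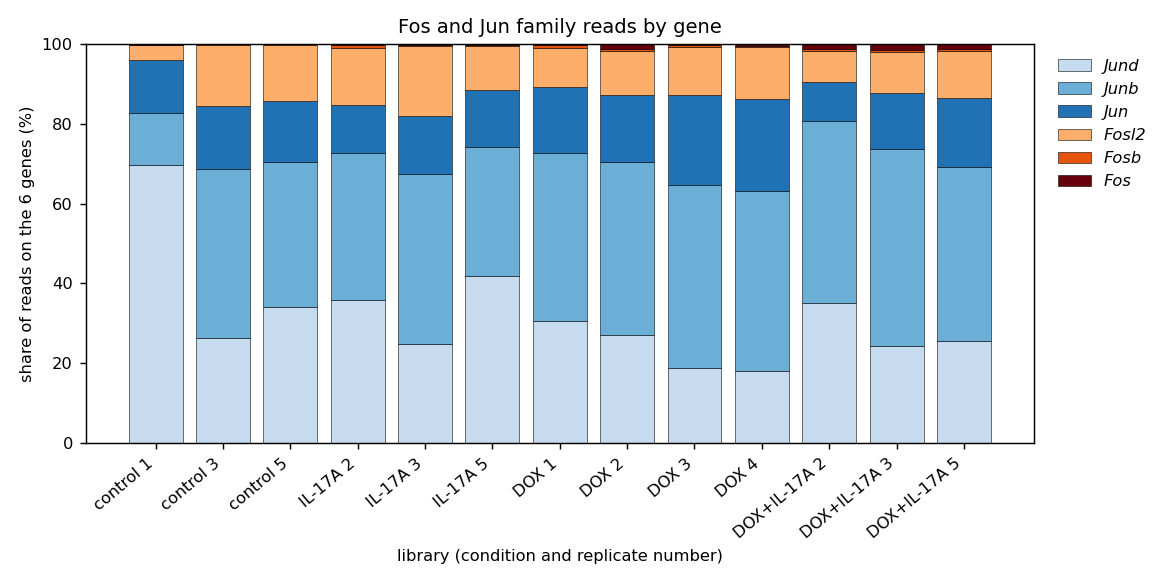
Share of reads (vertical axis, percent of the 6 genes' reads in a library) on *Jund*, *Junb*, *Jun*, *Fosl2*, *Fosb* and *Fos* in each of the 13 libraries, grouped by condition. *Jund* filled 69.6% of control replicate 1 and 18.2% to 42.0% of the other libraries, and *Fos* is visible as a dark band at the top in DOX replicate 2 and in the DOX+IL-17A libraries.

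*Egr1* encodes a zinc finger factor induced by serum and by ERK signalling, and lies at chr18:34859823-34864984 on the plus strand. It was at 28.8, 7.98 and 11.4 in control and at 27.4, 21.9, 13.8 and 11.2 with DOX. With DOX+IL-17A it was 23.1, 15.0 and 5.99, and with IL-17A it was 4.39, 5.66 and 5.99, the latter from 36 to 73 reads. All IL-17A libraries were below every library of control and DOX, and below those with DOX+IL-17A, though replicate 5 of the latter was at the same rounded value. *Egr1* in IL-17A was 0.333 of the control mean, a log2 fold change of −1.24 (95% interval −2.29 to −0.19, unadjusted p = 0.0234, adjusted p = 0.959, limma), and −0.74 without control replicate 1. Between DOX+IL-17A and IL-17A it was 1.14 (95% interval 0.09 to 2.19, adjusted p = 0.14, limma). DESeq2 called this last difference (1.46, adjusted p = 0.0458), as did limma without DOX+IL-17A replicate 5 (1.64, adjusted p = 0.0467). The groups did not overlap for 6.04% of all genes in IL-17A against control and for 32% in DOX+IL-17A against IL-17A.

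*Ier2*, a small intronless gene at chr8:84661331-84662852 on the minus strand, encodes a nuclear protein of immediate early type. It was at 6.09, 12.5 and 7.78 in control and at 15.0, 14.9, 15.7 and 12.9 with DOX. With DOX+IL-17A it was 22.7, 15.6 and 6.74, and with IL-17A 11.4, 12.9 and 6.07. No control value reached the lowest DOX value, which held for 2 members, *Fos* and *Ier2*, while 33.7% of all genes had groups that did not overlap in this comparison. The log2 fold change of *Ier2* with DOX was 0.72 (95% interval −0.09 to 1.53, adjusted p = 0.185, limma). For DOX+IL-17A and IL-17A the ranges overlapped and it was 0.44 (95% interval −0.42 to 1.30, adjusted p = 0.517, limma).

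*Myc*, the growth-promoting bHLH factor at chr15:61985391-61990374 on the plus strand, varied widely among replicates. It was at 105, 27.6 and 23.2 in control, 54.2, 122, 27.1 and 31.7 with DOX, 68.5, 65.6 and 19.5 under both agents and 45.2, 46.7 and 18.4 with IL-17A. The highest values were in control replicate 1 and DOX replicate 2, and all conditions overlapped. DOX against control gave 0.26 (SE 0.59, adjusted p = 0.786, limma), and the 95% interval reached a fold change of 2 in either direction.

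*Dusp1* encodes a nuclear phosphatase that turns off MAP kinases and is itself an immediate early gene. It was close to the limit of detection, with 0, 21 and 3 reads in control, 14, 0, 0 and 0 with DOX, 0, 1 and 22 under both agents and 6, 3 and 5 with IL-17A. No difference between conditions was detectable at this depth, and the fitted log2 differences of so low a gene depend on the pseudocount. *Dusp1*, at chr17:26505590-26562128 on the minus strand, overlaps *Ergic1* on the other strand.

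Replicates of a condition did not scatter in the same way for all members. As deviations from the condition mean of log2(value + 1), *Fos* and *Myc* moved together over the 13 libraries (Pearson r = 0.84, and 0.79 without control replicate 1). *Egr1* and *Myc* did so with r = 0.76, and 0.69 without that library. *Fosl2* and *Jund* were opposed (r = −0.97, and −0.95 without it), and *Fosl2* and *Junb* moved together (0.89, and 0.78). The points share library depth and scaling, and members were compared in 36 pairs, so these are descriptions. DOX replicate 2 was high for both *Fos* and *Myc*, whereas DOX+IL-17A replicate 5 was low for *Myc*, *Egr1* and *Ier2*.

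**Figure D4:**
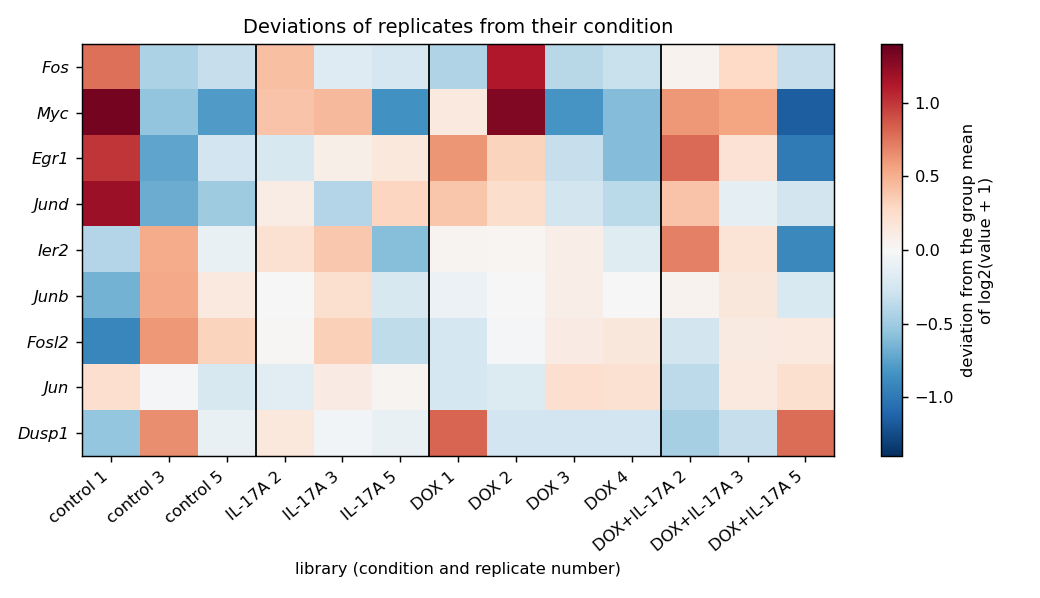
Deviation of each library from its condition mean of log2(value + 1) (color, red above and blue below) for the 9 genes (rows) in the 13 libraries (columns), with lines between conditions. Control replicate 1 deviated by 1.34 for *Myc*, 1.19 for *Jund* and −0.92 for *Fosl2*, and DOX replicate 2 was above its condition for *Fos* and *Myc*.

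Genes whose pattern was most like that of a member were found by Pearson's r of log2(value + 1) over the 13 libraries. For *Fos* they were *Cxcl2* (r = 0.93), *Pole4* (0.92) and *Il13ra2* (0.92). *Cxcl2*, a neutrophil chemokine, lay between 1.46 and 4.57 in control, 9.57 and 37.9 after DOX, 48.1 and 108 under both agents and 3.61 and 20.5 with IL-17A, the same order of conditions as *Fos*. *Il13ra2*, a decoy receptor of IL-13, was at most 0.236 in control and 0.563 with IL-17A, and lay between 7.16 and 12.4 with DOX+IL-17A. *Fosl2* was most like *Ddx17* (0.97), *Pim3* (0.96) and *Pou2f1* (0.96), and *Jun* like *Cyb5d2* (0.87), *Cep290* (0.86) and *Inhbb* (0.86). *Junb* was most like *Prag1* (0.96), *Actr1b* (0.95) and *Prpsap2* (0.95), and *Jund* like *Snord13*, *Hsd17b12* (0.97) and *Rnu3b3* (0.96). *Egr1* was most like *Gas2l3* (0.93), *Xdh* (0.89) and *Fam102a* (0.88), and *Ier2* like *Hnrnph2* (0.95), *Plau* (0.95) and *Tpst1* (0.95). *Myc* was most like *Ppp2cb* (0.94), *Glyr1* (0.88) and *Nfe2l1* (0.87), and *Dusp1*, at its low reads, like *4933433G15Rik* (0.92), *Pabpc1l* (0.81) and *Zfp931* (0.79). Each was chosen as among the highest over all genes tested, and says nothing of shared control.

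Some of the other AP-1 subunits and leucine zipper partners rose with DOX. Of 14 listed, 9 were tested, and 2 rose with DOX while 0 fell (22.2%, beside 15.3% of all genes called). *Atf3*, a stress-induced Atf protein, rose from 2.71 to 8.12 in control libraries to 36.0 to 69.5 with DOX (log2 fold change 3.12, adjusted p = 0.000142, limma). *Atf3* was at 21.5 to 34.4 with DOX+IL-17A and 3.45 to 12.5 with IL-17A, and it was not called in DOX+IL-17A against DOX. *Fosb*, the closest relative of *Fos*, rose by 1.35 (adjusted p = 0.0143, limma) from 0.508 to 2.12 in control to 3.67 to 6.68 with DOX. Between DOX+IL-17A and IL-17A, 3 of 9 rose and 0 fell (33.3%, beside 9.84% of all genes), namely *Atf3* (1.73), *Mafk* (1.39) and *Maff* (1.28). That count was 0 without DOX+IL-17A replicate 2 and 1 without IL-17A replicate 3. *Fosb* had a log2 fold change of 0.18 there (adjusted p = 0.8, limma), at 4.50 to 5.74 with DOX+IL-17A and 3.20 to 7.32 with IL-17A. Over the list the median change in log2 was 0.55 for DOX and 0.96 for DOX+IL-17A against IL-17A, beside 0.09 and 0.02 over all genes, and the members' medians were 0.26 and 0.33.

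Of 48 other immediate early genes listed, 42 were tested. DOX against control had 13 higher and 0 lower (31%), where 9.15% of all genes were higher and 6.18% lower, and 29 did not pass. DOX+IL-17A against IL-17A had 9 higher and 1 lower (23.8%), where 4.92% of all genes were called in each direction. Among the 13 higher in DOX against control were the chemokine genes *Cxcl1* (log2 fold change 2.66, adjusted p = 0.0166, limma) and *Cxcl2* (2.51, adjusted p = 0.00377, limma). *Il6* had no read in any library without DOX, lay between 3.06 and 6.80 after DOX and reached 7.49 to 19.2 under both agents, at least 14.2-fold higher than control and at least 34.2-fold higher than IL-17A against a floor of 3 reads per library. Between DOX+IL-17A and IL-17A the largest changes beside *Il6* were in *Cxcl2* (3.09) and the Polo-like kinase gene *Plk3* (2.32), and *Id2*, an inhibitor of bHLH factors, fell by 1.27 on the log2 scale (adjusted p = 0.00834, limma). The list's median was 0.76 with DOX and 0.52 in DOX+IL-17A against IL-17A, and setting *Il6* to its bound moved neither beyond rounding. Without control replicate 1 and DOX replicate 1, 10 were higher with DOX. Immune markers summed to 27.4 to 53.2 with DOX, against 19.1 to 21.3 in control, with *Cd68* called higher (2.01), and to 12.6 to 20.1 with DOX+IL-17A, against 10.7 to 16.7 with IL-17A. Their part in these lists was not tested.

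**Figure D5:**
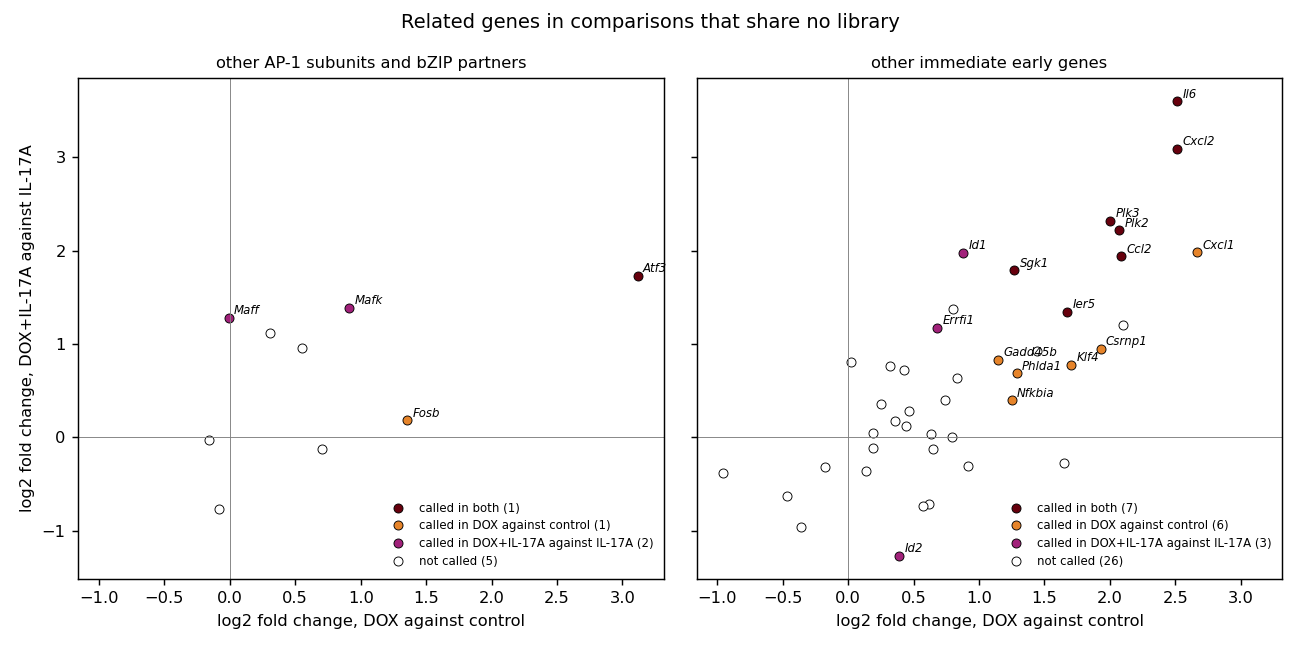
Log2 fold change in DOX against control (horizontal axis) and in DOX+IL-17A against IL-17A (vertical axis), for 9 other AP-1 subunits and partners (left) and 42 other immediate early genes (right). Genes called in either comparison are named. The comparisons share no library, but their calls rest on a common estimate of spread from all 13 libraries. In the left panel *Atf3* was called in both comparisons, and in the right panel 7 genes were, with *Il6* and *Cxcl2* at the upper right, where the position of *Il6* depends on the pseudocount as it is at 0 without DOX.

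Among 19 MAP kinase phosphatases and feedback inhibitors tested of 21 listed, *Dusp8*, a phosphatase of stress kinases, rose with DOX (log2 fold change 1.73, adjusted p = 0.00119, limma), and the RAS inhibitors *Spred3* (−1.48) and *Nf1* (−1.24) fell. *Spred3* was at 1.77 to 5.07 in control and 0.322 to 0.805 with DOX, so that its fitted change depends on the pseudocount. With DOX+IL-17A, relative to IL-17A, *Dusp8* (1.73) and *Dusp14* (1.15) rose and 0 fell. The called genes were 15.8% and 10.5% of those tested, near the 15.3% and 9.84% of all genes. Of this list 4 fell with DOX without control replicate 3, and 1 rose relative to IL-17A without IL-17A replicate 2. Of 45 genes of the MAP kinase cascade and serum response tested of 49 listed, 1 rose and 4 fell in each comparison. That was 11.1% in each, under the 15.3% of all genes with DOX and near the 9.84% relative to IL-17A. With DOX, 7 fell without control replicate 3 and 2 without control replicate 5, and 0 rose without control replicate 1. Relative to IL-17A, 2 fell without IL-17A replicate 5, and the rise was lost on leaving out each DOX+IL-17A library in turn, or IL-17A replicate 3 or 5. *Elk1*, an ETS factor that acts on the *Fos* promoter with serum response factor, rose 2.14-fold with DOX and 2.06-fold when DOX+IL-17A was set against IL-17A. The stress kinase kinases *Map3k4* (−1.64 and −1.42) and *Map3k5* (−1.18 and −1.29) fell in both, *Rps6ka5* (−1.15) fell with DOX, and *Elk3* (−1.13) fell in DOX+IL-17A against IL-17A.

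Some partner and antagonist genes of Myc passed the test with DOX. Of 15 tested of 17 listed, 20% were called in DOX+IL-17A against IL-17A, beside 9.84% of all genes. In DOX against control 2 rose and 2 fell (26.7%, beside 15.3% of all genes). *Max*, the obligate partner of Myc, rose by 2.15 (adjusted p = 0.0032, limma), from 16.6 to 56.9 in control to 134 to 184 with DOX, and *Mycl* rose by 1.52, whereas the antagonists *Mxi1* (−1.59) and *Mxd4* (−1.18) fell. *Mycl* was at 0 to 1.83 in control and 3.30 to 6.35 with DOX, so that its fitted change depends on the pseudocount. Without control replicate 1, 1 rose and 1 fell, and the falls were also reduced to 1 on leaving out several other libraries. With DOX+IL-17A, relative to IL-17A, *Mlx* (1.18) and *Mlxip* (1.12) rose and *Mxi1* (−1.65) fell, the rises being lost without DOX+IL-17A replicate 2 or IL-17A replicate 3 or 5, and *Max* had a log2 fold change of 1.05 (adjusted p = 0.148, limma). Of 30 textbook targets of Myc, 8 rose and 2 fell in each comparison (33.3%, beside 15.3% and 9.84% of all genes). With DOX, 13 rose without control replicate 1 and 5 without control replicate 5. Relative to IL-17A, 5 rose without DOX+IL-17A replicate 2 or 3, and 3 without DOX+IL-17A replicate 5 or IL-17A replicate 3 or 5. With DOX the largest rises were in *Odc1* (1.40), the first enzyme of polyamine synthesis, and in the ribosome biogenesis genes *Bop1* (1.37) and *Ddx21* (1.34). Relative to IL-17A, with DOX+IL-17A they were in *Srm* (1.44), *Nme1* (1.33) and *Bop1* (1.31). The lactate dehydrogenase gene *Ldha* (−1.41 and −1.23) and *Npm1* (−1.12 and −1.25) fell in both.

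Textbook targets of AP-1 were tested in 26 of 30 listed. DOX raised 4 and lowered 1 of them (19.2%, not far from the 15.3% of all genes called). In DOX+IL-17A against IL-17A 6 rose and 1 fell (26.9%, beside 9.84% of all genes). Besides *Il6*, *Areg* (1.64 and 2.09), a ligand of the EGF receptor, rose in both, as did *Ccl2*, a monocyte chemokine. *Il6*, *Ccl2* and *Ptgs2* are also on the list of other immediate early genes, so these lists are not separate. *Ccl2* was at 0, 0.0609 and 0 in control and 2.06 to 5.69 with DOX, and at 0 to 0.629 with IL-17A and 3.28 to 4.70 under both agents, so that its fitted log2 fold changes of 2.09 and 1.94 depend on the pseudocount. *Vegfa*, the vascular growth factor, fell in both (−1.09 and −1.58). With DOX 0 fell without DOX replicate 4, and relative to IL-17A 3 fell without IL-17A replicate 5. The list's medians were 0.50 and 0.62. In none of the 7 lists was a gene called in IL-17A against control or in DOX+IL-17A against DOX (limma). On leaving out 1 library at a time, at most 1 of the other immediate early genes was called lower in DOX+IL-17A against DOX. In IL-17A against control and DOX+IL-17A against DOX, 3.08% and 6.35% of all genes had an unadjusted p under 0.05 (limma). So did 9 and 6 of 42 other immediate early genes, and 2 and 2 of 9 other AP-1 subunits and partners. Counts were 2 and 0 of 19 for phosphatases and inhibitors, and 2 and 0 of 45 for the cascade. They were 1 and 2 of 15 for partners of Myc, 2 and 1 of 30 for its targets, and 0 and 5 of 26 for AP-1 targets.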

How the data were processed

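RNA from 13 samples of 4T1-Thy1.1 cells was sequenced by QuantSeq 3′ libraries. The authors trimmed reads with Trimmomatic, aligned them to mm10 with STAR, counted them per gene with featureCounts and deposited a signal table of TMM-normalized values in which 100% of values are whole reads within 0.1 read. Whether counting used strand is not given in the sources used here. A duplicate row of *Ifit1* was dropped.

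The main test was limma 3.58.1 (R 4.3.3) on log2(value + 1) over all 13 libraries with condition as the only term. Genes were kept by filterByExpr on recovered reads and p-values were Benjamini-Hochberg adjusted over 12319 genes. Alternatives were voom, edgeR 4.0.16, DESeq2 1.42.0, other scaling, filters and pseudocount, a replicate block and leaving out each library. Leaving out control replicate 1 together with DOX replicate 1 was chosen after seeing the data. Scripts were tested on simulated data. Shares were compared with exact permutation tests (scipy 1.17.1). The members and lists were chosen with earlier results of these data known. Per list and direction, up to 3 called genes of largest change were named, and 3 genes most like each member. The plot of related genes names every called gene. The result of 1 further gene of the lists is not reported here.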

Additional observations from a re-analysis of the deposited data

Results flagged for a closer look

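In the 11 groups of 4 values examined, 2 held a value far from the others by Dixon's test, which by chance flags about 1 in 20 groups. *Fos* in DOX replicate 2 was 11.8, against 3.38 to 3.76 in the other DOX libraries. *Dusp1* in DOX replicate 1 was 1.13, from 14 reads, against no read in the other DOX libraries.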

How the results depend on the processing

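In DOX against control, edgeR (14.3% of all genes called) and DESeq2 (17.2%) called 2 members, *Fos* and *Jund*, a fit of only the groups compared (14.3%) called 0, and leaving out 1 library gave 0 to 1. In DOX+IL-17A against IL-17A, DESeq2 (12.4%) called 2, *Fos* and *Egr1*, and leaving out 1 library gave 1 to 2. *Fos* in DOX against control was 1.37 in a fit of only the groups compared (adjusted p = 0.0726, limma), and in the latter comparison stayed called throughout.

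Small log2 differences changed sign. In DOX against control, *Fosl2* was −0.0052 by voom, −0.083 by edgeR, −0.12 by DESeq2 and −0.33 without control replicate 1 and DOX replicate 1. In DOX+IL-17A against IL-17A, *Jun* was 0.026 by voom, 0.024 by edgeR, 0.031 by DESeq2 and 0.22 with scaling by size only, and *Dusp1* was 0.080 by edgeR. In IL-17A against control, *Dusp1* was −0.18 by edgeR and −0.12 by DESeq2, and *Ier2* was −0.022 by voom. Without control replicate 1 and DOX replicate 1 that comparison gave *Dusp1* −0.21, *Ier2* −0.031, *Fosl2* −0.011, *Junb* −0.027, *Jund* 0.21 and *Myc* 0.41. In DOX+IL-17A against DOX, *Ier2* was 0.027 by edgeR and 0.045 by DESeq2. The cause was not tested.

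Leaving out 1 library at a time gave, in DOX against control, −0.42 to 0.35 for *Fosl2*, −0.056 to 0.81 for *Egr1*, −0.18 to 0.92 for *Myc* and −0.54 to 0.054 for *Dusp1*. In DOX+IL-17A against IL-17A it gave −0.11 to 0.18 for *Jun*, −0.53 to 0.092 for *Dusp1* and −0.041 to 0.96 for *Myc*. In IL-17A against control it gave −0.011 to 0.75 for *Fosl2*, −0.027 to 0.57 for *Junb*, −0.74 to 0.21 for *Jund*, −0.031 to 0.47 for *Ier2*, −0.66 to 0.41 for *Myc* and −0.21 to 0.38 for *Dusp1*. In DOX+IL-17A against DOX it gave −0.19 to 0.025 for *Fosl2*, −0.81 to 0.085 for *Egr1*, −0.46 to 0.35 for *Ier2*, −0.44 to 0.45 for *Myc* and −0.20 to 0.42 for *Dusp1*, which the filter kept in 12 of 13 such fits.

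Replicate numbers were not treated as pairing the samples, since the labels give them no meaning. Same-numbered pairs did deviate together more than others on average, though not all of them. Whether the numbers mark a shared origin was not tested. The mean r was 0.15 for same-numbered pairs (−0.18 to 0.49, 8 of 13 over 0.1) and −0.04 for others (13 of 50 over 0.1). With the replicate block the member called in DOX against control was *Jund* (−1.03, adjusted p = 0.0287, limma) and no longer *Fos* (1.18, adjusted p = 0.105, limma), beside 11.2% of all genes, and *Myc* −0.15, *Ier2* in IL-17A against control was −0.022, and *Myc* in DOX+IL-17A against DOX was 0.29.

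Scaling by size only moved the median of all genes from 0.09 to 0.24 in DOX against control and from 0.02 to 0.22 in DOX+IL-17A against IL-17A. Calls over all genes went from 1127 higher and 761 lower to 1516 and 488, and from 606 and 606 to 1017 and 381. They went from 1 to 15 by DESeq2 in IL-17A against control, from 1589 to 654 with only the groups compared in DOX+IL-17A against control, and from 1212 to 666 and 765 without IL-17A replicate 3 and 5 in DOX+IL-17A against IL-17A. In DOX+IL-17A against DOX they went from 54 to 93 by DESeq2, 35 by edgeR, 23 with a pseudocount of 0.1, 87 with only the groups compared and 14 with the replicate block. There they were 1 without DOX+IL-17A replicate 3, 7 without DOX replicate 4, 8 without DOX+IL-17A replicate 5 and 15 to 88 on leaving out each of the others. The planned share of *Fosl1* was not run. Depth limits *Dusp1* and the control values of *Fos*.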
